A study of Mus musculus with 6 samples.

Results

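The subunits of the Mediator complex and of TFIID were described in RNA-seq libraries of dental pulp dissected from the mandibular first molar of C57BL/6 mice at P3.5 (3.5 days after birth). The members were the genes of the count table whose symbol is Ccnc, Cdk8, Cdk19 or Tbp, or is made of Med or Taf and a number with at most 1 further letter, which gave 57 of 27506 genes. The 3 control libraries are labelled Ror2fl/fl, the floxed Ror2 allele with no Cre named, and the 3 mutant libraries come from Osr2-Cre;Ror2fl/fl mice, in which Cre under Osr2 control deletes Ror2 in the dental mesenchyme. Ror2 codes for a receptor of non-canonical Wnt signaling, and Osr2-Cre acts in the mesenchyme but not in the epithelium, which also expresses Ror2. The title of control library 1 carries the letters WW and those of control libraries 2 and 3 the letters OW, which the labels do not explain, so a difference in origin between control libraries cannot be told apart from the spread of the group. The mutant titles carry the letters OR, so the letters and numbers of the titles also differ between the genotypes.

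By complex, the members comprised 33 Mediator subunits, 17 TFIID genes, the 4 TAFs of SL1, the 2 SAGA subunits Taf5l and Taf6l, and Taf15, an RNA-binding protein of the FET family that shares the TAF name. The label of the rule thus covers 50 of the 57 genes, and the other 7 belong to other complexes. Taf7l, a germ cell relative of Taf7, was the member that could not be tested, with between 0 and 4 counts per library. The remaining 56 members had between 86 and 15287 counts per library.

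Mediator is a large protein assembly that passes signals from transcription factors bound at enhancers to RNA polymerase II. Its head and middle modules contact the polymerase, its tail module contacts most activators, and a kinase module, made of cyclin C, CDK8 or CDK19, MED12 or MED12L and MED13 or MED13L, binds it reversibly and blocks its contact with the polymerase. TFIID is the general factor that recognizes the core promoter. It consists of the TATA-binding protein TBP and TBP-associated factors (TAFs), many of which fold together in pairs, and it opens the assembly of the polymerase at the start site. SL1, also built around TBP, does this for RNA polymerase I at ribosomal RNA genes.

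The libraries held between 56134770 and 62628940 estimated counts. Ror2 itself had 38.2, 36.2 and 36.7 CPM (read counts relative to the TMM-scaled library size) in the controls and 27.9, 28.1 and 26.3 CPM in the mutants. The groups did not overlap, and Ror2 transcript fell by 0.43 ± 0.08 (SE) on the log2 scale (edgeR, adjusted p = 0.013; 0.066 without control library 2 and 0.075 without control library 3). Markers of dental mesenchyme were detected, with summed levels from 519 to 598 CPM in controls and from 598 to 671 CPM in mutants. Of the 11 tested, 2 were higher and 1 lower, the median log2 fold change was -0.19, opposite in direction to the sums, and no marker of the list was at 0 in all libraries. The epithelial list, which includes enamel matrix genes, summed to between 172000 and 192000 CPM in controls and between 185000 and 255000 CPM in mutants, with 1 of 10 tested genes lower, so epithelial transcripts were a large part of these pulp libraries. Skeletal muscle markers summed to between 10.4 and 36.0 CPM in controls and between 2.6 and 3.52 CPM in mutants, with all 6 tested genes lower, and erythroid markers to between 782 and 1320 CPM and between 244 and 933 CPM, with 2 of 6 lower. None of these genes was at 0 in all libraries, and their part in the results below was not tested. In bulk samples, fewer cells of a type and less RNA per cell cannot be told apart.

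Because TFIID and Mediator act at promoters, the promoters of the members with some of the clearest changes, and that of Tbp, are shown first. RefSeq promoters (GRCm38.p6) reaching from 250 bases before to 50 bases after the start site were matched by symbol for 49 of the 57 members. The 100 bases before the start site are printed 5′ to 3′ on the strand of the gene. Capitals mark matches on either strand to the letters TATAAA for the binding box of TBP, CCAAT for the box of the factor NF-Y, GGGCGG for the GC box of Sp factors and CCGGAAG for a site of ETS factors.
Taf13, chr3:108571599-108571698, plus strand: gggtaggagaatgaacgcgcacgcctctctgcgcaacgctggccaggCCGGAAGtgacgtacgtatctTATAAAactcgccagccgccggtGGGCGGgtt
Ccnc, chr4:21727601-21727700, plus strand: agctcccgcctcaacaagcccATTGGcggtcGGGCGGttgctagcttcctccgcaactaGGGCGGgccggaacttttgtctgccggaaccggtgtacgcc
Taf8, chr17:47502292-47502391, minus strand: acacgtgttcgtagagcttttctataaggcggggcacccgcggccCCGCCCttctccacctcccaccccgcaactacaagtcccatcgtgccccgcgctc
Med18, chr4:132463922-132464021, minus strand: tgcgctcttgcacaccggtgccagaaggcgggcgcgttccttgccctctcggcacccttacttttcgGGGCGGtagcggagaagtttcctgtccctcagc
Tbp, chr17:15499788-15499887, plus strand: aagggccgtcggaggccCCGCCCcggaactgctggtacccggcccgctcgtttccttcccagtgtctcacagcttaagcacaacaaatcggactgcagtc

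The Taf13 promoter held TATAAA with its first base at -32, an ETS match at -53 and a GC box at -9, counted from the start site. Ccnc had GC boxes at -69 and -41 and a CCAAT box on the opposite strand at -79, and neither Ccnc, Taf8, Med18 nor Tbp held TATAAA in these 100 bases. Over the full promoter windows, GGGCGG was found in 71.4% of the 49 members, in 36.0% of all 27025 promoters and in 58.6% of the 13031 promoters of protein-coding genes. CCGGAAG was found in 32.7% of members, 9.17% of all promoters and 15.2% of coding promoters, and CCAAT in 36.7%, 37.9% and 38.2%. TATAAA was found in 12.2% of members, in Med7, Med16, Med28, Taf5, Taf7l and Taf13, against 14.2% of all promoters and 8.61% of coding promoters. The YY1 letters AAGATGGCG occurred in 4.08% of members, 1.49% of all promoters and 2.55% of coding promoters, and the palindromic NRF1 motif in 0 of 49 members, 0.973% of all promoters and 1.71% of coding promoters. Of the 13 members called below, 11 had a promoter in the table, of which 9 held a GC box and 4 an ETS match. These matches are descriptions of the sequence and not sites of binding.

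Levels differed widely between subunits of one complex. On the scale of CPM per kb of exons, which allows genes of different length to be compared, the highest Mediator gene was Med13 at 21.7 ± 2.65 (SD, n = 3) in the controls, followed by Med19 at 17.7 ± 1.97, and the lowest was Med12l at 0.625 ± 0.0970. Med13 is the large subunit that links the kinase module to the rest of Mediator. Among TFIID genes, Taf10 at 7.60 ± 0.510 CPM per kb and Taf1 at 7.47 ± 0.343 differed by less than their spread and were the highest. That order depends on the exons counted, since per kb of the longest transcript Taf6 was the highest at 9.75, followed by Taf10 at 8.13, Taf13 at 7.99 and Taf1 at 7.94. Taf4b, the gonad-enriched relative of Taf4, was at 0.357 ± 0.0373 and Taf7l, listed above as not tested, at 0.0098 ± 0.00475. Tbp was at 1.17 ± 0.113, a value that depends on the annotated exons of Tbp, which together span 13576 bases.

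**Figure D1:**
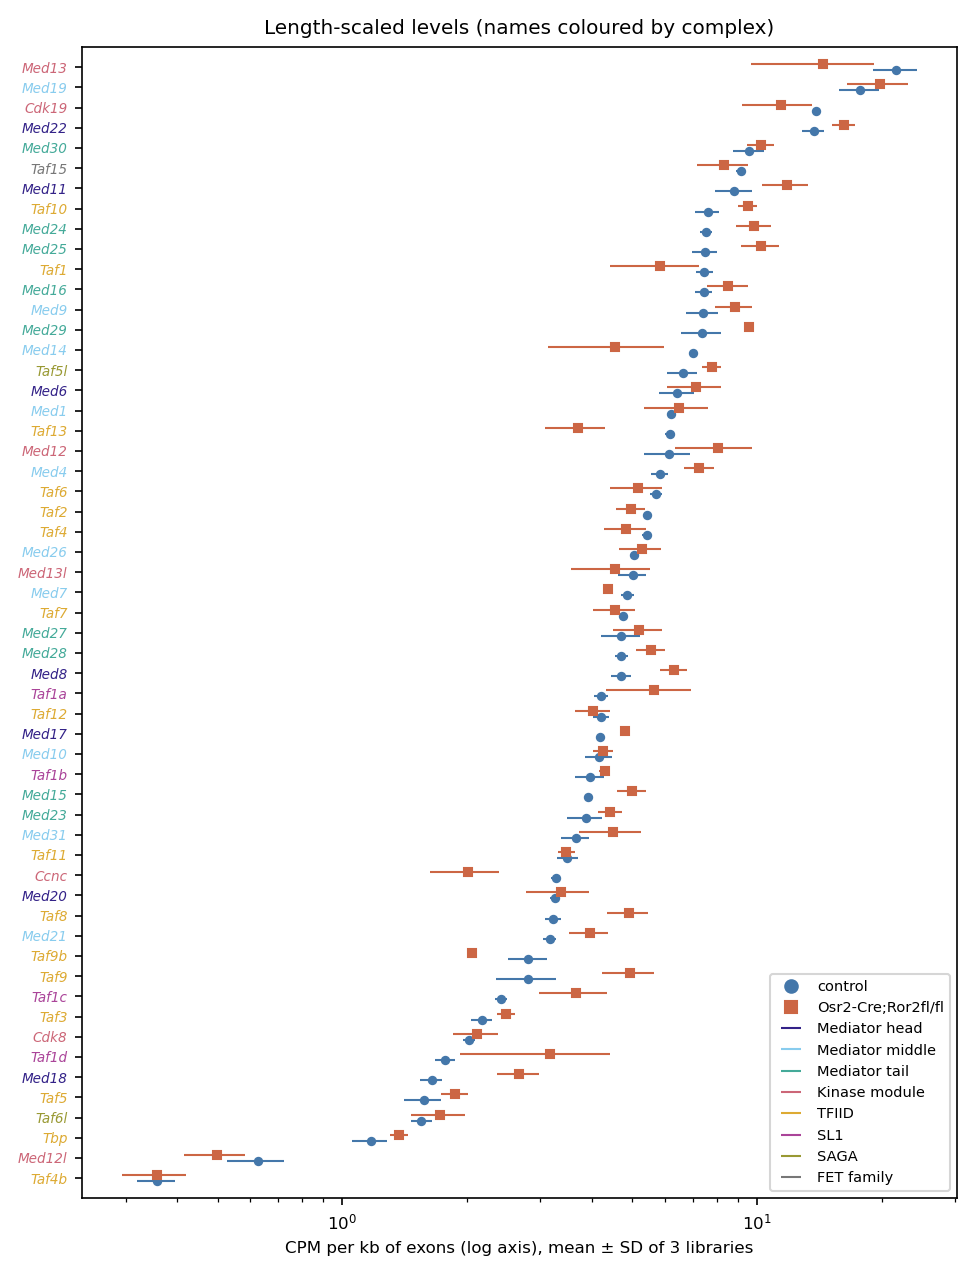
Mean CPM per kb of exons with its SD over 3 libraries (log axis) for each of the 56 members tested, controls as circles and Osr2-Cre;Ror2fl/fl as squares, ordered by the control mean. Med13 is at the top at 21.7 in controls, and Med12l and Taf4b are at the bottom at 0.625 and 0.357.

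In the comparison of Osr2-Cre;Ror2fl/fl with control pulp, 13 of the 56 members tested (23.2%) had an adjusted p-value under 0.05, near the 20.2% of all 19330 genes tested. Of the 13, 10 were higher in the mutants (17.9% of members, against 10.4% of all genes) and 3 were lower (5.36%, against 9.84%). The fitted log2 fold change was above 0 in 39 of 56 members, against 50.7% of all genes, and its median was 0.16, against 0.01 over all genes. An unadjusted p-value under 0.05 was found for 23 members, against 38.3% of all genes. The 3 control and 3 mutant values did not overlap for 32 members (57.1%, against 44.7% of all genes), of which 25 were higher in the mutants (22.6% of all genes were) and 7 lower (22.1% of all genes were). The count of calls depends on the libraries: it was 1 (Taf13) without control library 2 and also without control library 3, 6 without control library 1, 7 without mutant library 1, 12 without mutant library 2 and 13 without mutant library 3. Calls over all genes fell in parallel, from 3906 to 910 without control library 2 and to 872 without control library 3.

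**Figure D2:**
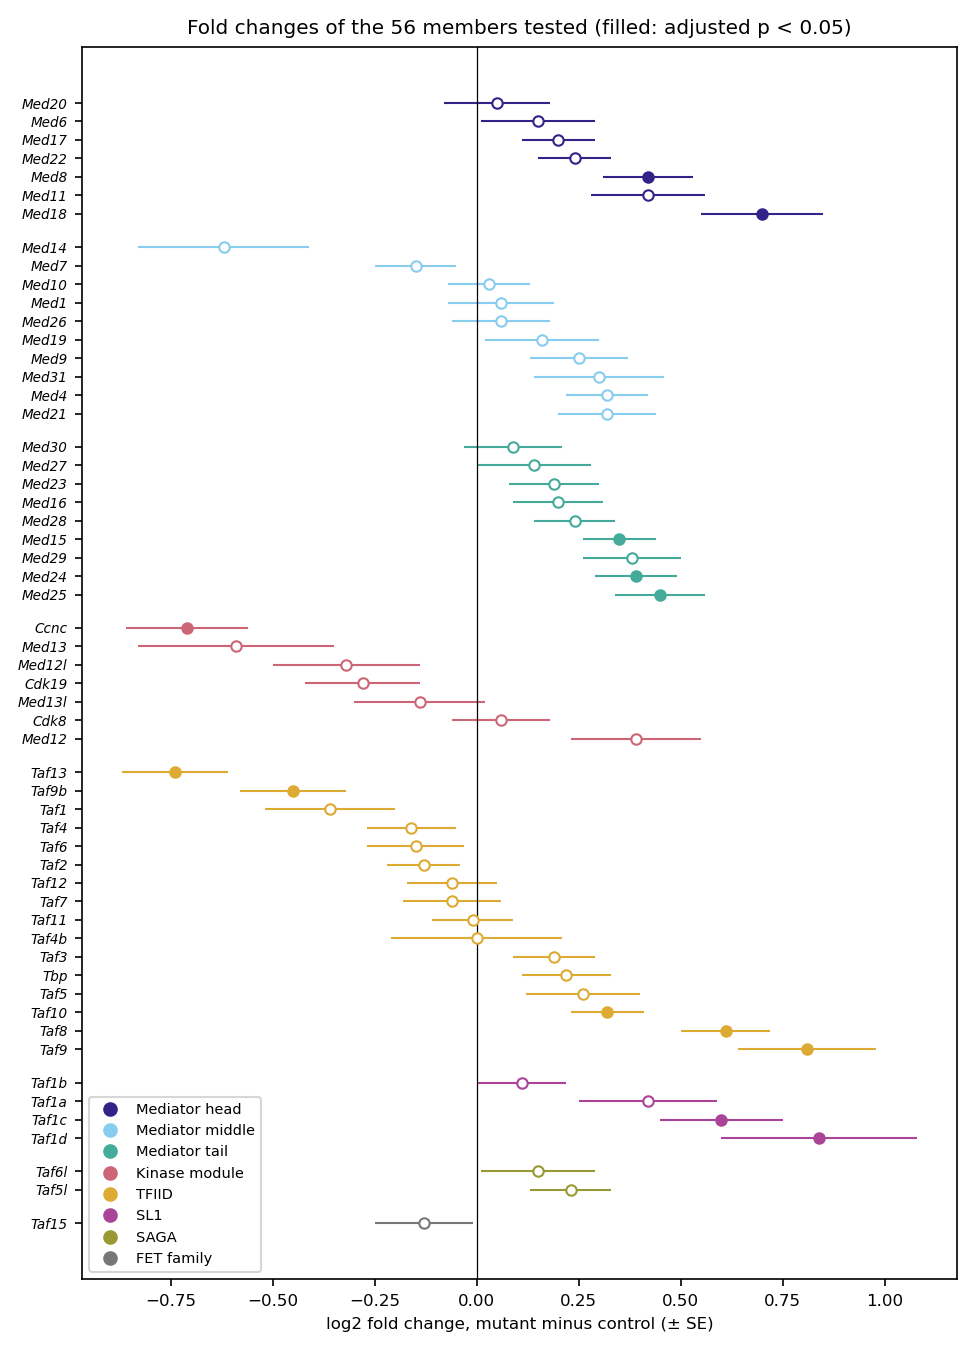
Fitted log2 fold changes (mutant minus control) with standard errors for the 56 members tested, grouped by complex, with filled points for an adjusted p-value under 0.05. Head and tail subunits of Mediator lie above 0, kinase module genes lie mostly below, and TFIID genes spread from -0.74 (Taf13) to 0.81 (Taf9).

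The 7 head subunits of Mediator, which sit next to the polymerase, all had fitted values above 0, with a median log2 fold change of 0.24. Med18 and Med8 were called higher (28.6%, against 10.4% of all genes), and the groups did not overlap for 5 of the 7 (71.4%, against 44.7%). Med18, which forms the movable jaw of the head with Med20, measured 3.07, 3.29 and 3.48 CPM in controls and 4.94, 6.07 and 5.0 CPM in mutants. Every mutant library lay above every control library, and the log2 fold change was 0.70 ± 0.15 (adjusted p = 0.020). Its partner Med20 had overlapping groups and a value of 0.05 ± 0.13 (adjusted p = 0.81). Med8, which anchors Med18 to the head, had 14.1, 13.3 and 14.9 CPM in controls and 18.5, 20.5 and 17.7 CPM in mutants. Its groups were also separate, with a difference of 0.42 ± 0.11 (adjusted p = 0.031). Neither call held without a control library (adjusted p from 0.054 to 0.094 for Med18 and from 0.074 to 0.15 for Med8), nor did that of Med8 without mutant library 1 (0.060). Med18 is at chr4:132458731-132463921 and Med8 at chr4:118409337-118415782 (mm10).

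Without an offset, edgeR called none of the 10 middle subunits (20.2% of all genes were called), while 3 had an unadjusted p-value under 0.05, against 38.3% of all genes. With an offset for GC content and exon length, it called Med21 (0.53, adjusted p = 0.013, against 0.32, adjusted p = 0.084, without) and Med4 (0.38, adjusted p = 0.034, against 0.32, adjusted p = 0.060), both parts of the arm that reaches toward the polymerase and both named after their values were seen. Med21 shares 13.06% of its stretches of 75 bases with other genes. Summed without the offset with 4 of them, it made up 2.15% of the control sum, which was at 0.42 (adjusted p = 0.041). Without the offset, fitted values of the middle subunits were above 0 in 8 of 10, with a median of 0.11. Med14, the scaffold that connects head, middle and tail and is grouped here with the middle, had the lowest value of the 26 genes outside the kinase module and was named after its values were seen. It had 61.0, 62.6 and 60.4 CPM in controls and 43.2, 26.2 and 50.2 CPM in mutants. The groups did not overlap, the mutants were spread more widely than the controls, and the difference was -0.62 ± 0.21 (adjusted p = 0.066). Med14 was called lower in 5 alternatives, 2 of them with a library left out (adjusted p from 0.015 to 0.17 over all alternatives). With the GC and length offset it was at -0.39 (adjusted p = 0.16).

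All 9 tail subunits had fitted values above 0, from 0.09 to 0.45, with a median of 0.24. Med15, Med24 and Med25, each a known contact of activators, were called higher (33.3%, against 10.4% of all genes). Med25 rose from 60.7, 52.7 and 58.1 CPM to 78.4, 85.9 and 69.6 CPM (0.45 ± 0.11, adjusted p = 0.025). Med24, a partner of nuclear receptor signaling, had 50.3, 47.3 and 49.9 CPM in controls and 65.9, 69.5 and 57.4 CPM in mutants, a log2 fold change of 0.39 ± 0.10 (adjusted p = 0.031). Med15 had 44.8, 46.9 and 45.2 CPM against 63.2, 56.9 and 54.1 CPM, a log2 fold change of 0.35 ± 0.09 (adjusted p = 0.034). In all 3 genes, every mutant library exceeded every control library. Without control library 2 or 3 the 3 calls were lost (adjusted p from 0.11 to 0.16), as they were without mutant library 1 (from 0.063 to 0.081), and without control library 1 those of Med15 (0.086) and Med24 (0.067) were lost. Counted together with genes that share sequence with them, neither Med15 (0.09, adjusted p = 0.44) nor Med25 (0.17, adjusted p = 0.32) passed the test. Med15 made up 54.1% and Med25 26.4% of those sums in the controls. Med15 shares 1.2% of its stretches of 75 bases with other genes and Med25 0.51%. The sums add all counts of each gene that shares at least 20 stretches, so they mostly do not measure reads that could belong to either gene.

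**Figure D3:**
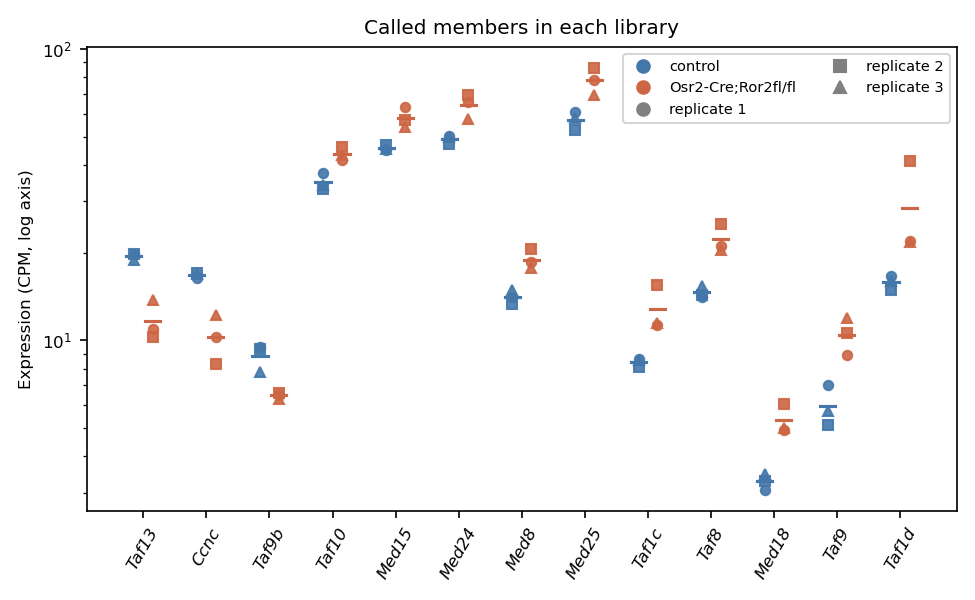
CPM (log axis) in each library for the 13 members with an adjusted p-value under 0.05, with symbols for the replicate and lines for group means. The groups of these genes do not overlap, and Taf1d in mutant library 2 (41.3 CPM) stands apart from the other 2 mutant libraries at 22.0 and 21.7 CPM.

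The kinase module was the part of Mediator with a median below 0 (-0.28, against 0.22 over the other 26 Mediator genes). This difference was not tested. With an offset for GC content and exon length fitted in each library the medians were -0.07 and 0.15, and edgeR called none of the 7. Without the offset, 3 of the 7 had an unadjusted p-value under 0.05, against 38.3% of all genes, and DESeq2 also called Ccnc. Of the 7 genes of the module, 5 had fitted values below 0. Ccnc was called lower (14.3%, against 9.84% of all genes), and none was called higher. Cyclin C, the product of Ccnc, is the cyclin that activates CDK8 and CDK19. Ccnc (chr4:21727701-21759922, mm10) measured 16.3, 17.0 and 16.9 CPM in controls and 10.3, 8.28 and 12.2 CPM in mutants. The controls lay within a narrow band and the highest mutant was below it. Ccnc transcript fell by 0.71 ± 0.15 on the log2 scale, to 0.613 of the control level (adjusted p = 0.016). Without control library 2 the adjusted p was 0.072 and without control library 3 it was 0.075. Summed with Tstd3, a neighbour on the opposite strand whose exons overlap it and which holds the balance of a sum that was 83.2% Ccnc, the value was -0.67 (adjusted p = 0.012). With the GC and length offset the value was -0.14 (adjusted p = 0.63), and the call was lost. The longest transcript of Ccnc has a GC content of 35.5%, against a median of 47.4% for the members.

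The kinases that cyclin C activates did not pass the test. Cdk19 had 79.3, 82.8 and 81.4 CPM in controls and 71.4, 52.4 and 76.7 CPM in mutants (-0.28 ± 0.14, adjusted p = 0.18), with mutant library 2 the lowest, and was at -0.12 without that library. Cdk8 had 19.8, 19.3 and 20.5 CPM against 20, 23.7 and 18.6 CPM (0.06 ± 0.12, adjusted p = 0.72), with overlapping groups. Med13, the highest of the module, measured 205, 262 and 238 CPM in controls and 178, 97.7 and 193 CPM in mutants. Its groups did not overlap, and -0.59 ± 0.24 did not pass the test (adjusted p = 0.11). Med13 passed with DESeq2 (adjusted p = 0.046) and voom (0.028), and was at -0.33 without mutant library 2 (adjusted p = 0.081) and at -0.19 with the GC and length offset (adjusted p = 0.54). Med12, which activates the kinase through cyclin C, had a fitted value above 0, with 40.4, 51.7 and 49.5 CPM against 52.6, 76.8 and 56.1 CPM (0.39 ± 0.16, adjusted p = 0.11). Med12l and Med13l, the paralogs of Med12 and Med13, had values of -0.32 ± 0.18 (adjusted p = 0.21) and -0.14 ± 0.16 (adjusted p = 0.54), both with overlapping groups. Med12l was at -0.07 with the offset (adjusted p = 0.81) and at -0.64 when summed with the genes sharing its sequence, of which it was 13.6% (adjusted p = 0.067).

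As one paralog of each pair occupies a place in the module, the share of each paralog in its pair was computed per library from CPM per kb. Cdk19 made up 87.0%, 87.8% and 87.0% of the Cdk8 and Cdk19 total in controls and 85.7%, 78.8% and 87.4% in mutants. The groups overlapped (mean difference -3.30 percentage points, two-sided exact permutation p = 0.3), and without mutant library 2 the difference was -0.726 percentage points. Med12l made up 8.92%, 9.09% and 9.69% of its pair in controls and 7.83%, 4.80% and 5.38% in mutants, without overlap. Med12l shares 15.7% of its 75-base stretches, mostly with Igsf10 on the opposite strand (50.4 ± 12.8 CPM in controls and 31.0 ± 8.16 CPM in mutants; SD, n = 3), so its level and this share depend on how reads were divided. Its mean share was 9.24% ± 0.405 (SD, n = 3) in controls and 6.00% ± 1.61 in mutants (exact permutation p = 0.1). Med13l made up 19.5%, 18.1% and 18.9% of the Med13 and Med13l total in controls and 24.3%, 27.5% and 21.7% in mutants, also without overlap. Its mean share was 18.8% ± 0.717 in controls and 24.5% ± 2.91 in mutants (exact permutation p = 0.1). With 3 libraries against 3, 0.1 is the smallest p this test can give, so none of the 3 pairs could pass 0.05.

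**Figure D4:**
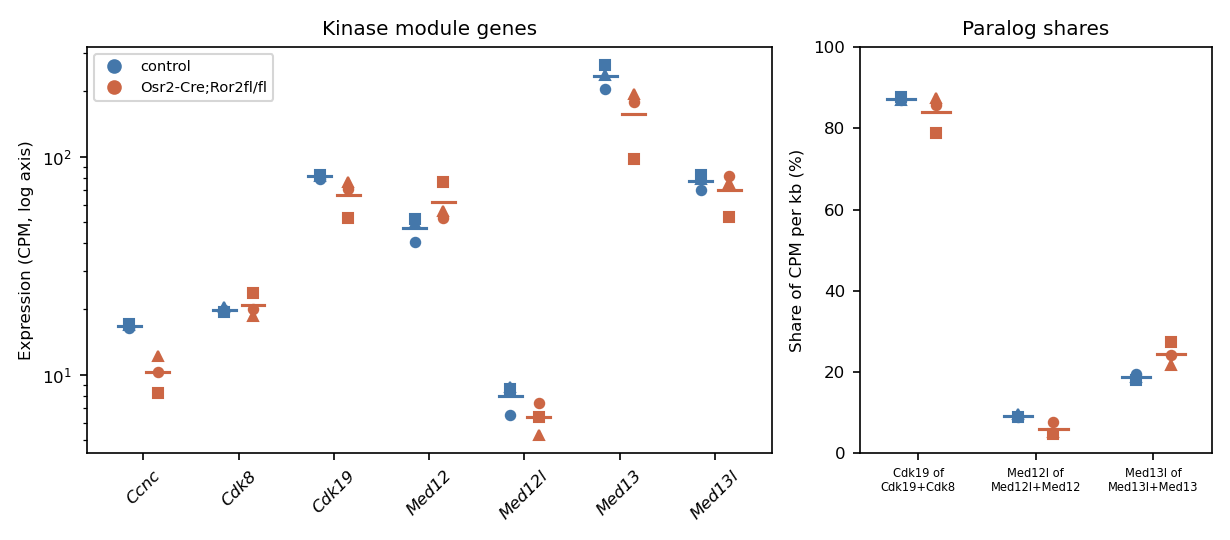
Left, CPM (log axis) of the 7 kinase module genes in each library; right, share in percent of the first-named paralog in the summed CPM per kb of its pair, with lines for group means. The Ccnc groups are separate at 16.3 to 17.0 and 8.28 to 12.2 CPM, and the share of Med13l is 18.1% to 19.5% in controls and 21.7% to 27.5% in mutants.

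TFIID genes moved both ways. Of the 16 tested, 3 were higher (Taf8, Taf9 and Taf10), 2 were lower (Taf13 and Taf9b) and 11 did not pass (31.2% called, against 20.2% of all genes), and the median log2 fold change was -0.03, or 0.09 with the GC and length offset. Taf13 (chr3:108571698-108583222, mm10), whose promoter with its TATA box is printed above, codes for a histone-fold protein that pairs with TAF11 and contacts TBP. It measured 19.8, 19.8 and 18.9 CPM in controls and 10.9, 10.3 and 13.8 CPM in mutants. The groups were far apart relative to their spread, and Taf13 transcript fell by 0.74 ± 0.13 on the log2 scale, to 0.597 of the control level (adjusted p = 0.0098). Taf13 was past the threshold in 15 of 16 alternatives, including the GC and length offset (-0.54, adjusted p = 0.043) and the removal of each library in turn. Gm11189, a processed pseudogene of Taf13 on another chromosome that shares 5.40% of its 75-base stretches, went from 0.687 ± 0.136 to 2.01 ± 0.613 CPM (SD, n = 3), and the sum of both genes still differed (-0.56, adjusted p = 0.025). The partner of Taf13, Taf11, had overlapping groups of 20.4, 18.8 and 18.3 CPM and 18.9, 18.3 and 20 CPM (-0.01 ± 0.10, adjusted p = 0.97).

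Taf8 and Taf10 code for another histone-fold pair of TFIID. Taf8 (chr17:47483364-47502292, mm10) had 14.1, 14.3 and 15.4 CPM in controls and 21.1, 25.1 and 20.4 CPM in mutants. All mutants were above all controls, and the log2 fold change was 0.61 ± 0.11 (adjusted p = 0.012). Taf8 shares no 75-base stretch with another gene and remained past the threshold with the GC and length offset (0.50, adjusted p = 0.018). Taf10, which is shared with the coactivator SAGA, had 37.5, 33.0 and 34.0 CPM against 41.5, 46.1 and 43.2 CPM (0.32 ± 0.09, adjusted p = 0.044). Without control library 2 or 3 the adjusted p of Taf8 was 0.068 or 0.059, and Taf10 did not pass without any one of the 6 libraries (0.053 to 0.20). Taf10 overlaps Ilk on the opposite strand and shares 40.8% of its stretches with other genes, and the summed counts, of which Taf10 was 23.9%, did not pass the test (0.03, adjusted p = 0.81).

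Taf9 and Taf9b are paralogs that pair with TAF6, and the first was higher and the second lower. Taf9 (chr13:100651579-100656060, mm10) had 7.05, 5.13 and 5.70 CPM in controls and 8.90, 10.6 and 11.9 CPM in mutants (0.81 ± 0.17, adjusted p = 0.016). Taf9b (chrX:106206883-106221158, mm10) had 9.49, 9.35 and 7.76 CPM in controls and 6.51, 6.62 and 6.29 CPM in mutants (-0.45 ± 0.13, adjusted p = 0.042). Both sets of groups were separate. In CPM per kb, Taf9b made up 47.5%, 55.0% and 47.7% of the pair in controls and 32.9%, 29.6% and 26.2% in mutants, a change from 50.1% ± 4.29 (SD, n = 3) to 29.6% ± 3.37 (exact permutation p = 0.1, the smallest possible). This pair and that of Taf4 and Taf4b were added to the share analysis after the values were seen. Taf9 shares 66.0% of its stretches with Ak6, whose gene spans the same region on the same strand, so how reads were divided between them affects its level. The sum of Taf9 with Ak6 and the processed pseudogenes that share its sequence, of which Taf9 was 12.5%, gave 0.21 (adjusted p = 0.13). Without control library 2 or 3 the adjusted p of Taf9 was 0.080 or 0.082. Taf9b shares none, and its call was kept in 3 of 15 alternatives and lost without any one of the 6 libraries (0.058 to 0.17).

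Tbp, which binds the TATA box, had 14.1, 16.7 and 16.8 CPM in controls and 18.0, 19.6 and 18.0 CPM in mutants. The groups did not overlap, but 0.22 ± 0.11 did not pass the test (adjusted p = 0.17); with the GC and length offset it was 0.61 (adjusted p = 0.017). Taf1, the largest TFIID subunit, had overlapping groups of 60.9, 66.7 and 64.2 CPM and 47.9, 39.1 and 62.8 CPM (-0.36 ± 0.16, adjusted p = 0.14). Taf1 passed with voom (adjusted p = 0.041) and without mutant library 3 (-0.56, adjusted p = 0.020), and was at -0.20 without mutant library 2 and at -0.11 with the offset. Taf7, which binds Taf1 and regulates it, had 15.5, 15.7 and 15.8 CPM against 14.7, 13.4 and 16.9 CPM (-0.06 ± 0.12, adjusted p = 0.72). The values of Taf4 (-0.16 ± 0.11, adjusted p = 0.31) and Taf4b (0.00 ± 0.21, adjusted p = 0.99) also overlapped between groups. Taf4b made up 6.18% ± 0.728 (SD, n = 3) of its pair in controls and 6.84% ± 0.406 in mutants (exact permutation p = 0.2).

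For the 4 TAFs of SL1, the factor that starts ribosomal RNA synthesis, every mutant value lay above every control value (22.6% of all genes did so). The margin was narrow for Taf1b, whose control library 3 and mutant library 1 both rounded to 11.0 CPM (0.11 ± 0.11, adjusted p = 0.49). The median log2 fold change of these TAFs was 0.51, and Taf1c and Taf1d, 2 of the 4, were called higher (10.4% of all genes were). Taf1c had 8.63, 8.10 and 8.55 CPM in controls and 11.3, 15.5 and 11.5 CPM in mutants (0.60 ± 0.15, adjusted p = 0.027). Taf1d had 16.6, 14.9 and 16 CPM against 22.0, 41.3 and 21.7 CPM (0.84 ± 0.24, adjusted p = 0.043). Mutant library 2 was the highest for both, and for Taf1d it was far above the other 2 mutants; without it the log2 fold change of Taf1d was 0.47 (adjusted p = 0.018). Without a control library, the adjusted p was between 0.065 and 0.12 for Taf1c and between 0.098 and 0.14 for Taf1d. Taf1d hosts snoRNA genes in its locus and shares 6.1% of its stretches with other genes. It was 5.26% of a sum over 13 further genes that share at least 20 of its stretches, a sum that went the other way (-0.19, adjusted p = 0.24). All counts of those genes enter the sum. With the GC and length offset, Taf1c was at 0.36 and did not pass (adjusted p = 0.073), while summed with the 1 gene that shares at least 20 of its stretches it passed (0.59, adjusted p = 0.029). Neither SAGA gene passed the test, with values of 0.23 for Taf5l and 0.15 for Taf6l, nor did Taf15 (-0.13 ± 0.12, adjusted p = 0.44).

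GC content varied with these results. Here and in the offset, GC content is that of the longest transcript of each gene. Across the 56 members, the log2 fold change and the GC content had a Pearson r of 0.32 and a Spearman rho of 0.30. Over all genes tested they were 0.20 and 0.33, and genes share libraries and are not independent. Of the 16 members with a GC content under 45%, 9 had fitted values below 0 and 7 above 0, with the 3 lower calls and 2 higher calls, Taf9 and Taf1d, among them. Of the 40 members at or above 45%, 32 had fitted values above 0, with 8 higher calls and no lower call. The same split was not made over all genes, so it does not show a trait of the members. With the GC and length offset, 10 of the 56 members passed, 9 higher and 1 lower (Taf13), against 2814 of all 19330 genes. Of the 13 calls made without it, 7 were kept, those of Ccnc, Taf9b, Taf10 (adjusted p = 0.075), Taf1c (0.073), Med24 (0.055) and Med25 (0.053) were lost, and Tbp, Med4 and Med21 were added. On the log2 scale, mutant library 2 was the farthest of the mutants from its group median for 42.9% of members, against 45.7% of all genes. Control library 1 was the farthest of the controls for 62.5% of members, against 56.1% of all genes. The part of GC content and of single libraries in the differences was not tested beyond these values.

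**Figure D5:**
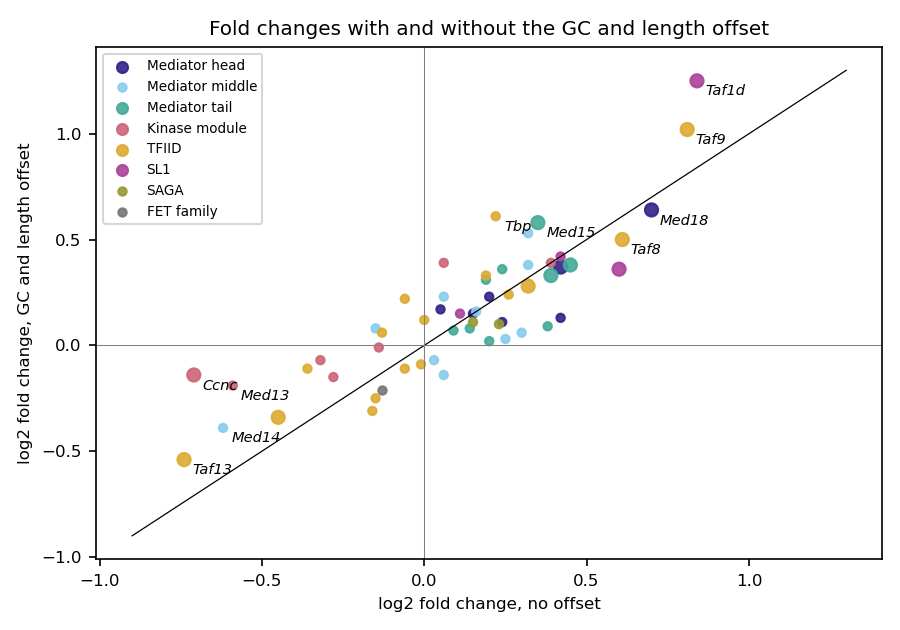
Log2 fold change of each member tested without (x axis) and with (y axis) an offset for GC content and exon length, with large points for members called without the offset and a line where both are equal. Ccnc moves from -0.71 to -0.14, Taf13 from -0.74 to -0.54, and Tbp from 0.22 to 0.61.

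Other genes of RNA polymerase II transcription were taken from lists of polymerase subunits, general factors, pausing and elongation factors, and SAGA coactivator subunits. Of 69 tested, 13 were called (18.8%, against 20.2% of all genes), 11 higher and 2 lower, with a median of 0.04. The count was 1 without control library 2 or 3, 6 without control library 1 and 7 without mutant library 1. Among 13 polymerase subunits, 4 were higher and 1, Polr2l, was lower (38.5% called, against 20.2% of all genes). Polr2k, a small subunit shared by all 3 nuclear RNA polymerases, went from 1.21, 0.875 and 1.0 CPM to 3.81, 4.90 and 4.51 CPM (2.09 ± 0.20, adjusted p = 0.00068). The groups were far apart, and Polr2k passed in 16 of 16 alternatives. The alternative with summed counts left Polr2k unchanged, because only members were summed, and sequence it shares with other genes was not examined. Polr2f, another shared subunit, and Polr2j were also higher (0.59, adjusted p = 0.0081, and 0.52, adjusted p = 0.012).

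Of 21 general factors, 2 were higher and 1 was lower (14.3% called, against 20.2% of all genes). Dr1 and Drap1 together form the repressor NC2, which binds TBP on the TATA box. Drap1 was higher, with 65.7, 57.1 and 61.6 CPM in controls and 86.9, 87.7 and 85.5 CPM in mutants (0.50 ± 0.09, adjusted p = 0.010). Dr1 was lower, with 31.2, 38.9 and 37.2 CPM in controls and 25.9, 18.8 and 28.7 CPM in mutants (-0.55 ± 0.16, adjusted p = 0.048), a call made in 7 of 16 alternatives (adjusted p up to 0.28) and, when 1 library was left out, kept only without mutant library 3. As for Polr2k, the alternative with summed counts left Dr1 unchanged. Gtf2f1, the large subunit of TFIIF, was higher (0.39, adjusted p = 0.027). Of 21 pausing and elongation factors, 4 were higher (19.0% called, against 20.2% of all genes) and none was lower, among them Ell (0.66, adjusted p = 0.019), Supt4a (0.52, adjusted p = 0.021) and Nelfcd (0.35, adjusted p = 0.038). Of 14 SAGA coactivator genes, 7.14% were called, against 20.2% of all genes. Eny2 was higher (0.40, adjusted p = 0.028), while Sgf29 (0.37, adjusted p = 0.069) and Kat2b (-0.38, adjusted p = 0.11) did not pass.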

How the data were processed

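The authors deposited estimated counts per gene without normalization; 48.7% of the values were whole. The paper's methods give single-end reads of 75 cycles aligned to mm10 with TopHat, while the submitters' processing notes name STAR 2.6.1d and Partek; how reads matching several genes were divided, and whether strand was used, is not given in the sources used here. The authors' normalized table was not used, nor were 6 columns of the count table that match no labelled sample. Labels do not say whether libraries came from separate mice, so p-values measure the spread between libraries, which may be technical.

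Counts were rounded, scaled by TMM and tested on the whole table with edgeR 4.0.16 (R 4.3.3, quasi-likelihood test, filterByExpr, no block) over 19330 genes, with Benjamini-Hochberg adjustment; the design had assumed whole counts. Alternatives used DESeq2 1.42.0, limma 3.58.1 (voom), other scalings and filters, a replicate block, splines of GC content and length as offsets, each library left out, and members summed with genes sharing at least 20 stretches of 75 bases. The edgeR, DESeq2 and voom fits were tried on simulated counts with 200 changed genes and less spread between libraries than in these data. That trial therefore does not show how the fits perform on these libraries. Replicate numbers are the sample index of the labels (5, 6 and 7), which occurs in both genotypes. The labels do not say whether the 2 groups were sequenced together, and if they were not, that difference cannot be told apart from genotype. The paper's methods mention 3 pairs of samples without naming which libraries belong together. Same-numbered libraries did not deviate together (correlations -0.10, -0.08 and -0.004), so the numbers were not taken as pairs. The genes named are all called members, Ccnc and Taf13, Tbp, Taf1, the kinase module, TAF paralogs, the highest and lowest level per length in each complex, and the 3 genes with the smallest p in each transcription list. Med4, Med14, Med20, Med21, Taf11, Taf1b, Taf5l, Taf6l, Taf15 and Polr2l were named after their values were seen. Members and lists were chosen with earlier results of these data known. Gene models are GENCODE M21 on mm10. Depth limits precision mainly for members with few counts.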

Additional observations from a re-analysis of the deposited data

How the results depend on the processing

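The replicate block, which used a number that same-numbered libraries share only by name, left 4 members called (2 higher) in place of 13 (10 higher, 3 lower), and with the GC and length offset as well it left 4 (4 higher, 0 lower; edgeR with the offset alone gave 1 lower and DESeq2 5 lower). Leaving out a library gave from 1 to 13 members called (0 to 9 higher, 1 to 4 lower), each with fewer samples. Library size alone gave 6 higher and voom 5 lower. Over all genes, 3906 calls became 2013 with the block, 2814 with the offset, 1609 with both, 5410 with DESeq2 and 6341 with voom. Other transcription genes called were 13 (11 higher, 2 lower), 25 with voom (18 higher, 7 lower), 6 with the block (6 higher, 0 lower), 8 with the offset (7 higher, 1 lower), 3 with both (2 higher, 1 lower), and from 1 to 16 with a library left out (1 to 11 higher, 0 to 5 lower). For these genes DESeq2 gave 6 lower, library size alone 7 higher and no filter 1 lower. The median log2 fold change of members lay between 0.10 and 0.19 with a library left out. Members whose groups did not overlap, 32 of 56, numbered 24 with library size alone and from 32 to 41 with a library left out. Removing a library cannot make separate groups overlap on the same scale, so the latter count could only stay or rise and does not measure stability. The share of Med12l differed by -4.88 percentage points without division by length, against -3.23. Ror2 was at -0.43 (adjusted p = 0.058) with the replicate block and from -0.46 to -0.41 with a library left out. Values near 0 changed sign: Cdk8 was at 0.00 with voom and from -0.03 to 0.13 with a library left out, Med13l from -0.26 to 0.03, Taf4b from -0.12 to 0.14, and Taf7 from -0.16 to 0.02. Taf7 was also at 0.22 with the offset and 0.21 with offset and block, and Taf4b at -0.02 with library size alone, -0.01 without a filter and -0.01 with the block. Taf1d was at -0.19 when summed with genes sharing its sequence, a sum of which it was 5.26%. Where the alternative's construction does not show it, the cause was not tested.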
